A study of Mus musculus with 28 samples.

Results

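Glucocorticoid-responsive genes and metallothioneins were followed in mouse hippocampal CA1 after kainic acid, which activates glutamate receptors of the kainate type and triggers seizures. The members were the 9 genes Mt1, Mt2, Fkbp5, Sgk1, Tsc22d3, Cdkn1a, Nr3c1, Zbtb16 and Ddit4, chosen by name. Of these, 8 of the 14711 genes in the deposited tables matched, and Tsc22d3 was not analysed here. All 8 passed the filter on low counts in every comparison. Members and gene lists were chosen with earlier results of these data known, so their counts beside shares of all genes are descriptions.

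The mice were C57BL/6, 3 to 4 weeks old, with the genotype CaMK2a-Cre/+; LSL-Rpl22-HA/+ (CaMK2a line) or PV-Cre/+; LSL-Rpl22-HA/+ (PV line). In each, Cre driven by the named gene switches on an HA-tagged copy of the ribosomal protein Rpl22, so that an anti-HA antibody pulls ribosomes with their transcripts from the Cre-expressing cells (IP). Every group carried both alleles, and no library of mice without Cre was analysed here, so RNA pulled unspecifically was not measured. Each line gave 4 groups: kainic acid IP, PBS IP, kainic acid input and PBS input, where input is the lysate before the IP. CA1 was taken 6 h after either injection by the labels, while the columns of PBS libraries are headed with an earlier time, which leaves the interval after PBS unclear. There were 3 libraries per group in the CaMK2a line (4 mice pooled, 20 ng RNA) and 4 in the PV line (9 to 10 mice pooled, 2.5 ng RNA).

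The 28 libraries held 6.06 to 15.85 M reads in coding genes. Replicate 4 of the PV line differed from the other 3 PV replicates in every PV group, and results that rest on it are given with and without it. Markers of choroid plexus, a tissue that borders the hippocampus, summed to 34.9 to 4256 CPM (TMM-scaled counts relative to library size) over the kainic acid CaMK2a inputs and 307 to 3811 CPM over the PBS CaMK2a inputs, a wide spread within each group whose part in the results was not tested. Markers listed for PV interneurons include the general GABAergic genes Gad1 and Gad2. They summed to 2303 to 4411 CPM in the PV IP libraries and 768 to 1291 CPM in the PV inputs. Astrocyte markers summed to 3634 to 6756 CPM in the PV IP libraries and to 9164 to 11208 CPM in the PV inputs, so astrocyte RNA was reduced but present there. Oligodendrocyte lineage markers after PBS summed to 3489 to 5371 CPM in the PV IP and 4812 to 6745 CPM in the PV input, with overlap. Pyramidal neuron markers after PBS summed to 4394 to 5378 CPM in the PV IP and 9159 to 9950 CPM in the PV input. In the CaMK2a IP libraries the astrocyte sum was 1296 to 2512 CPM, against 8180 to 9655 CPM in the CaMK2a inputs. No astrocyte marker measured was at 0 in any group, and Aqp4 and Gfap were not analysed here.

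As background, glucocorticoids bind the receptor encoded by Nr3c1, which waits in the cytosol with Hsp90 chaperones and then binds DNA at glucocorticoid response elements. Fkbp5, a chaperone partner that lowers the receptor's affinity for the hormone, Sgk1, Tsc22d3, Zbtb16 and Ddit4 are among the genes it is known to induce. Metallothioneins are small cysteine-rich proteins that bind zinc and copper. Mt1 and Mt2 are induced by glucocorticoids and, through the zinc sensor Mtf1, by metals. Cdkn1a, which encodes the cell cycle inhibitor p21, is known as a target of p53 as well.

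Promoter sequences are shown for the members whose levels rose and whose windows hold a response element. RefSeq windows on GRCm38.p6, searched over the 250 bases before each start on both strands, were held for 7 of the 9 genes. The palindromic glucocorticoid response element (AGAACA and TGTTCT with 3 bases between) was found in 1 of the 6 Sgk1 windows and in no window of the other genes, and 0.009% of 32851 windows hold it. The core of the metal response element (TGCACNC or TGCGCNC) occurred at 3 places in the Mt2 window, a number reached by 1.26% of all windows. It occurred once in the Mt1 window and once in the Ddit4 window, and 21.4% of all windows hold at least 1. The single site AGAACA, carried by 16.1% of windows, was in 3 Sgk1 windows and 1 Tsc22d3 window. The AP-1 site TGACTCA, carried by 4.46%, was in the Mt2 window, and the cAMP response element (TGACG joined to TCA, carried by 1.55%) was in none. Capitals mark the glucocorticoid response element in Sgk1 and the metal response cores in Mt1 and Mt2. The matches describe letters and not binding.
Sgk1, chr10:21993694-21993723, plus strand: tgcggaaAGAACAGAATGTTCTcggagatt
Mt1, chr8:94179059-94179080, plus strand: cccgctgTGCACACtggcgctc
Mt2, chr8:94172368-94172617, plus strand: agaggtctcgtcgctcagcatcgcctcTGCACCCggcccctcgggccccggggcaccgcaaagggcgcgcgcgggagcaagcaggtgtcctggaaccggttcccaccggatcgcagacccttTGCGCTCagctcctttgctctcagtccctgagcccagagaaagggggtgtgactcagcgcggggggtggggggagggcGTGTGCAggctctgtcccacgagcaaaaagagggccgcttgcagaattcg
The Mt1 window lies by the gene's most upstream start, and GENCODE M21 lists other Mt1 starts at positions 94179211 and 94179241. It lists Mt2 starts at positions 94172664 and 94172860. These starts lie downstream of the bases searched, so the 250 bases before each were not searched in full. The numbers of cores hold for the searched windows only.

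Kainic acid against PBS asks how RNA levels in tagged cells and in whole CA1 differ after the seizure-provoking drug. Cdkn1a, Mt2, Mt1 and Sgk1 rose in all 4 fractions (CaMK2a IP, CaMK2a input, PV IP and PV input). Zbtb16 rose in 3 fractions, Fkbp5 in the CaMK2a input, and the receptor gene Nr3c1 and Ddit4 passed the test in none. At an adjusted p under 0.05 in edgeR's quasi-likelihood test, 5 of 8 members rose in the CaMK2a IP, where 19.8% of the 10663 genes tested rose. In the CaMK2a input 6 of 8 rose, against 19.3% of 11287 genes. In the PV IP 4 of 8 rose, against 4.05% of 11107 genes, and in the PV input 5 of 8, against 8.21% of 11145 genes. The share of all genes that fell was 15.3%, 15.7%, 0.801% and 3.36% in these 4 fractions. With the replicate number as a block, 16.5% of all genes rose and 14.3% fell in the PV input, and 5.86% rose and 2.23% fell in the PV IP. Without that block, the count of members that fell was 0 in each fraction by edgeR (TMM scaling, all libraries) and by DESeq2. At an unadjusted p under 0.05 it was 1 (Nr3c1) in the CaMK2a IP and 0 in the others. With the block, Nr3c1 passed as a fall in the PV input. The members' median log2 fold change was 0.89, 1.11, 0.68 and 0.86 in the order above, and that of all genes tested lay between -0.02 and 0.01. Rises made up 56.4% of the genes called in the CaMK2a IP, and 42.4% with upper-quartile scaling, which moved the median of all genes there to -0.09 and left the members' rises past the threshold. In bulk RNA a change in the number of cells of a type and in RNA per cell cannot be told apart.

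**Figure D1:**
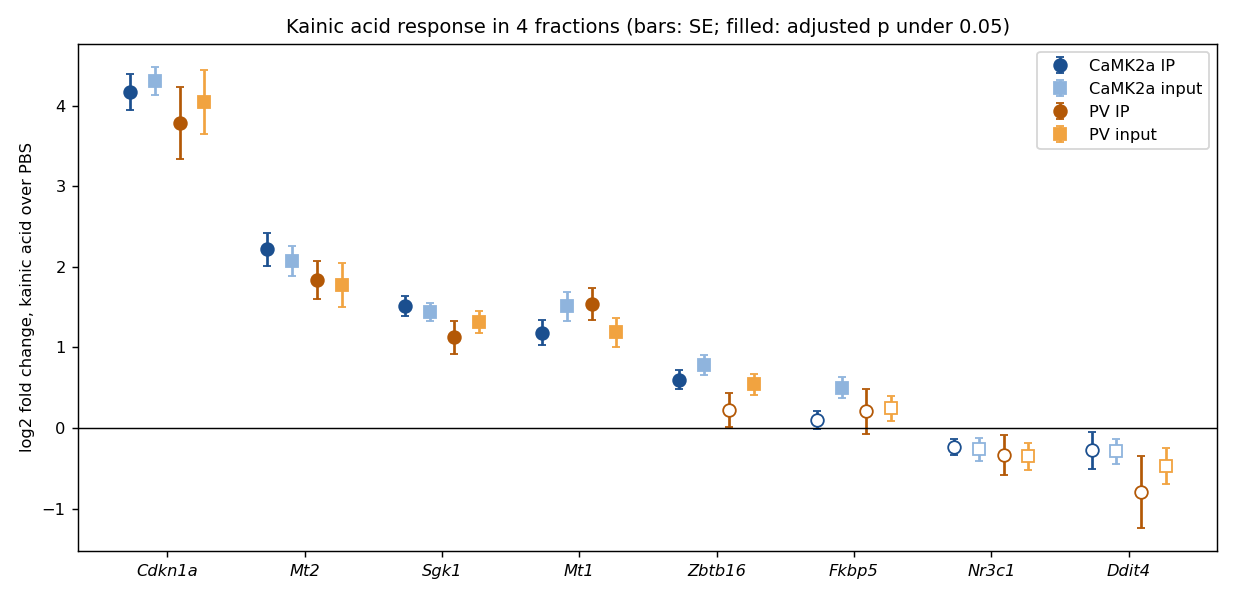
Log2 fold change of kainic acid over PBS (y axis) for each member (x axis) in the CaMK2a IP, CaMK2a input, PV IP and PV input, with the SE as bars and filled symbols where the adjusted p was under 0.05. Cdkn1a stands near 4 in all 4 fractions, Mt2, Sgk1 and Mt1 lie between 1.12 and 2.21, and Nr3c1 and Ddit4 lie below 0 with open symbols.

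The metallothionein genes were the most abundant members per length. Mt2 (gene ID 17750, chromosome 8, 94172618 to 94173567, plus strand, 3 exons) reached 865 ± 318 RPKM in kainic acid CaMK2a inputs, against 219 ± 32.3 RPKM in PBS inputs (SD, n = 3 each, deposited values). Mt2 in the CaMK2a IP stood at 317, 173 and 267 CPM after kainic acid, against 47.8, 63.2 and 53.3 CPM after PBS. Mt2 in the CaMK2a input stood at 1444, 1048 and 2079 CPM after kainic acid, against 317, 350 and 426 CPM after PBS. Every kainic acid library was above every PBS library in both fractions. Mt2 in the PV IP was at 475, 403, 554 and 646 CPM after kainic acid, against 110.1, 114, 137 and 207 CPM after PBS. Mt2 in the PV input was at 580, 503, 791 and 1319 CPM after kainic acid, against 199.6, 215, 206 and 289 CPM after PBS. The groups did not overlap, and replicate 4 was the highest library of each PV group. Log2 fold changes of Mt2 were 2.21 ± 0.21 in the CaMK2a IP (adjusted p = 4.47e-05), 2.07 ± 0.19 in the CaMK2a input, 1.84 ± 0.23 in the PV IP (adjusted p = 7.46e-05) and 1.78 ± 0.27 in the PV input (SE). With PV replicates 1 to 3 only, the Mt2 values were 1.96 in the PV IP and 1.57 in the PV input. Mt2 shares 432 exonic bases with the antisense gene Gm45774, and strandedness is not stated, so reads of the pair cannot be told apart.

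Mt1 (gene ID 17748, chromosome 8, 94179084 to 94180327, plus strand, 2 exons) lies next to Mt2. Mt1 in the CaMK2a IP stood at 135, 89.9 and 105 CPM after kainic acid, against 45, 55 and 46.5 CPM after PBS. Mt1 in the CaMK2a input stood at 367, 347 and 638 CPM after kainic acid, against 140.4, 160.3 and 176 CPM after PBS. In both fractions all kainic acid libraries were above all PBS libraries. Mt1 in the PV IP was at 341, 315, 305 and 375 CPM after kainic acid, against 91.7, 91.8, 114 and 151 CPM after PBS. Mt1 in the PV input was at 278, 238, 310.3 and 417 CPM after kainic acid, against 122, 126, 126 and 159 CPM after PBS. Mt1 rose by 1.18 ± 0.16 and 1.51 ± 0.18 on the log2 scale in the CaMK2a IP and input, and by 1.54 ± 0.20 and 1.19 ± 0.18 in the PV IP and input, with adjusted p of at most 0.000933. With PV replicates 1 to 3 only, the Mt1 values were 1.67 in the PV IP and 1.12 in the PV input. The longest stretch that transcripts of Mt1 and Mt2 share is 20 bases, shorter than the 75-base reads. Mt3, known as a metallothionein abundant in brain, was listed with only 4 to 59 reads per library (0.518 to 4.92 CPM). Whether the counting captured its reads could not be settled from these tables, so no level or change of Mt3 is drawn from them. Mt3 stayed among the genes tested in the counts of metallothionein and zinc genes below.

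**Figure D2:**
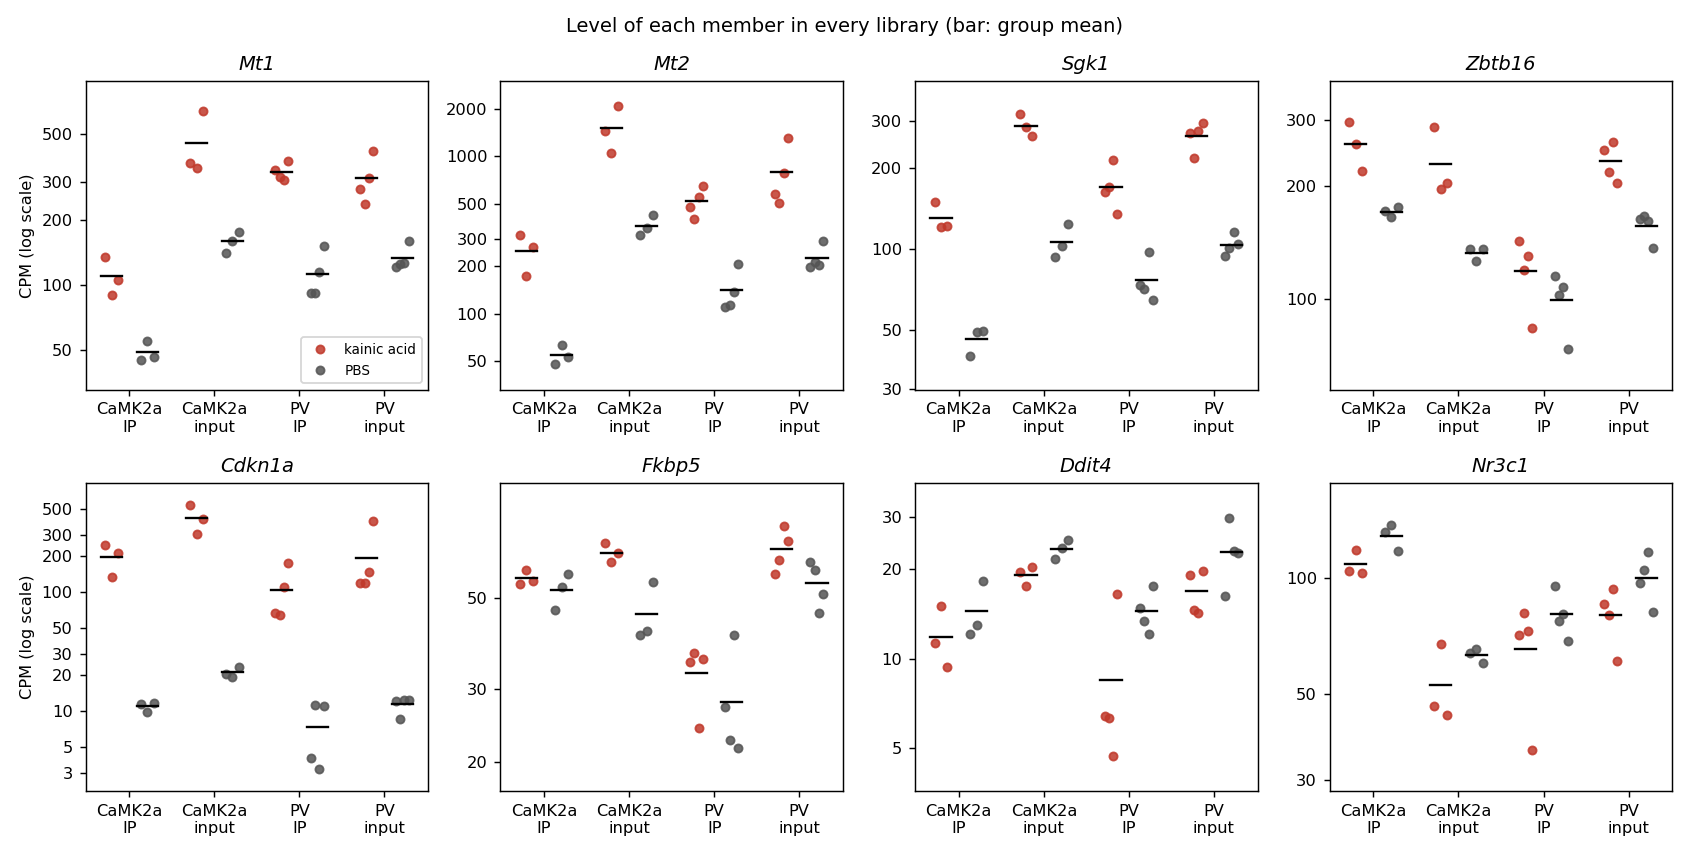
CPM of each member in every library on a log axis, for kainic acid (red) and PBS (grey) in the CaMK2a IP, CaMK2a input, PV IP and PV input, with 3 or 4 points per group and the group mean as a bar. For Mt1, Mt2, Sgk1 and Cdkn1a all red points lie above the grey points beside them, and for Nr3c1 and Ddit4 most groups overlap.

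The mean fold change with kainic acid was larger for Mt2 than for Mt1 in each fraction, a comparison chosen after the values were seen and given as a description. The number of Mt2 reads per Mt1 read does not depend on library scaling. In the CaMK2a IP it was 2.35, 1.93 and 2.53 after kainic acid, against 1.06, 1.15 and 1.14 after PBS. In the CaMK2a input it was 3.93, 3.02 and 3.26 after kainic acid, against 2.26, 2.18 and 2.42 after PBS. In the PV input it was 2.09, 2.12, 2.55 and 3.17 after kainic acid, against 1.64, 1.71, 1.63 and 1.82 after PBS. These 3 fractions had no overlap between the groups. The ratio in the PV IP was 1.39, 1.28, 1.82 and 1.72 after kainic acid, against 1.2, 1.25, 1.2 and 1.37 after PBS, and the ranges overlapped. By replicate number, the ratio was higher after kainic acid in 4 of 4 pairs of PV IP libraries.

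**Figure D3:**
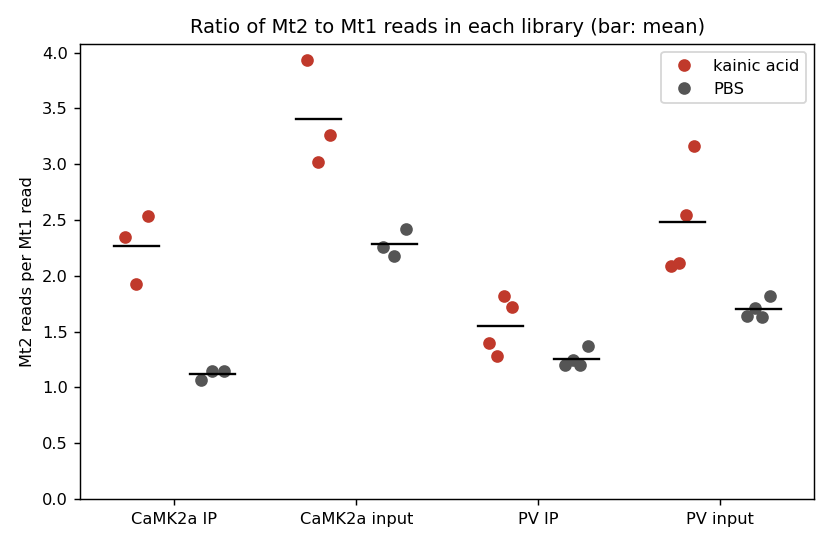
Mt2 reads per Mt1 read (y axis, from 0) in each library, for kainic acid (red) and PBS (grey) in the 4 fractions, with the group mean as a bar. Kainic acid means are 2.27, 3.40, 1.55 and 2.48 and PBS means are 1.12, 2.29, 1.26 and 1.70 in the CaMK2a IP, CaMK2a input, PV IP and PV input.

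Apart from Mt1 and Mt2, the metallothionein, Mtf1 and zinc transporter genes, with Mt3 among those tested, rose in shares near or below those of all genes. In the CaMK2a IP 4 of 17 rose (23.5%, against 19.8% of all genes) and 5 fell (29.4%, against 15.3%). Of 18 in the CaMK2a input 4 rose (22.2%, against 19.3%) and 5 fell (27.8%, against 15.7%). Of 18 in the PV IP 0 rose by edgeR, and in the PV input 1 of 18 rose (5.56%, against 8.21%). The falls of zinc genes in the CaMK2a IP numbered 1 to 3 without any 1 of the 3 PBS IP libraries, and those in the CaMK2a input 2 or 3 without kainic acid input replicate 1 or PBS input replicate 1 or 2. With Mt1 and Mt2 counted, the PV IP had 5 rises at an unadjusted p under 0.05 and 3 by DESeq2. With the replicate number as a block, Mt1 and Mt2 again counted, the PV input had 5 rises and 4 falls, and the CaMK2a IP had 3 falls. Slc39a14, a zinc importer, rose by 0.61 ± 0.13 in the CaMK2a IP, 1.20 ± 0.12 in the CaMK2a input and 0.67 ± 0.20 in the PV input on the log2 scale. The call in the PV input was lost in 9 of 16 alternatives (adjusted p = 0.0543 to 0.145), among them without any 1 of kainic acid input replicates 2 to 4 and PBS input replicates 1 to 3. Slc30a1, the plasma membrane zinc exporter, rose by 0.81 ± 0.14 in the CaMK2a IP. The transporters Slc39a11 and Slc39a6 fell there by 1.02 ± 0.28 and 0.66 ± 0.13 on the log2 scale, and the call on Slc39a11 was lost without PBS IP replicate 2 (adjusted p = 0.0739).

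Sgk1 (gene ID 20393, chromosome 10, 21882184 to 21999903, plus strand, 19 exons) encodes a kinase that regulates ion channels and transporters. Sgk1 in the CaMK2a IP was at 149, 121 and 122 CPM after kainic acid, against 39.9, 49 and 49.4 CPM after PBS. Sgk1 in the CaMK2a input was at 318, 284 and 264 CPM after kainic acid, against 93.8, 102 and 124 CPM after PBS. Its rises there were 1.51 ± 0.13 (adjusted p = 2.47e-05) and 1.44 ± 0.11 (adjusted p = 1.79e-08) on the log2 scale. Sgk1 in the PV IP was at 163, 170.0, 215 and 136 CPM after kainic acid, against 73.6, 71.2, 97.6 and 64.8 CPM after PBS. Sgk1 in the PV input was at 269.9, 219, 276 and 295 CPM after kainic acid, against 94.3, 101, 116 and 105 CPM after PBS. The groups did not overlap, and the log2 fold changes were 1.12 ± 0.20 in the PV IP and 1.32 ± 0.14 in the PV input. Among 5 Sgk kinases and substrates tested in the CaMK2a IP, Sgk1 was the 1 that rose (20%, near the 19.8% of all genes). In the CaMK2a input 2 of 6 rose and 1 fell, against 19.3% and 15.7% of all genes. The rises there became 1 without kainic acid input replicate 1, and the fall was lost by DESeq2. In each PV fraction 1 of 6 rose. Foxo3, a transcription factor that Sgk1 phosphorylates, fell in the CaMK2a IP by 0.52 ± 0.09.

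Cdkn1a (gene ID 12575, chromosome 17, 29090986 to 29100722, plus strand, 4 exons) had the largest fold change of the members. Cdkn1a in the CaMK2a IP was at 246, 134 and 214 CPM after kainic acid, against 11.5, 9.76 and 11.6 CPM after PBS. Cdkn1a in the CaMK2a input was at 533, 307 and 409.7 CPM after kainic acid, against 20.6, 19.4 and 23.4 CPM after PBS. These are rises of 18-fold and 19.8-fold, or 4.17 ± 0.23 and 4.31 ± 0.17 on the log2 scale, with no overlap. Cdkn1a in the PV IP was at 66.5, 64.2, 110.3 and 176 CPM after kainic acid, against 4.07, 11.2, 3.27 and 11 CPM after PBS. Cdkn1a in the PV input was at 118, 118, 147 and 391 CPM after kainic acid, against 12.2, 8.64, 12.4 and 12.4 CPM after PBS. Replicate 4 was the highest kainic acid library of both PV fractions. The rises were 3.78 ± 0.45 in the PV IP and 4.05 ± 0.39 in the PV input, against 3.67 and 3.51 with PV replicates 1 to 3 only, where both calls held. Cdkn1a shares 273 exonic bases with the gene AC167363.2 on the opposite strand, whose reads cannot be told apart from it.

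The p53 list, with Cdkn1a counted, had 7 rises of 15 genes tested in the CaMK2a IP, against 19.8% of all genes. In the CaMK2a input 10 of 15 rose, against 19.3%. In the PV IP 4 of 14 rose, against 4.05%, and in the PV input 6 of 14, against 8.21%. Without PBS IP replicate 1 or 2, 2 rose in the PV IP, with Btg2 among those that missed the threshold (adjusted p = 0.0556 and 0.0531). Besides Cdkn1a, Btg2, an antiproliferative gene that is also an immediate early gene, rose by 2.33 ± 0.32 and 2.58 ± 0.21 in the CaMK2a IP and input and by 2.21 ± 0.52 and 2.52 ± 0.47 in the PV IP and input. Plk2, a polo-like kinase induced by neuronal activity, rose by 2.20 ± 0.17 in the PV IP. The DNA damage gene Gadd45a rose by 2.08 ± 0.26 in the CaMK2a IP and by 1.72 ± 0.25 in the CaMK2a input. Of the other cyclin-dependent kinase inhibitors, Cdkn1b (p27) rose by 0.67 ± 0.14 in the CaMK2a IP and by 0.57 ± 0.15 in the PV input. The call on Cdkn1b in the PV input was lost with upper-quartile factors, in a fit to all 4 PV groups and without any 1 of kainic acid input replicates 2 and 3 and PBS input replicates 1 to 3 (adjusted p = 0.0584 to 0.199). Cdkn1b passed in the CaMK2a input only with the replicate block or without kainic acid input replicate 2 or 3.

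Zbtb16 (gene ID 235320, chromosome 9, 48651797 to 48836382, minus strand, 8 exons), a zinc finger transcription factor also called PLZF, rose less. Zbtb16 in the CaMK2a IP was at 297, 259.5 and 219 CPM after kainic acid, against 172, 166 and 176 CPM after PBS. Zbtb16 in the CaMK2a input was at 288, 196 and 204 CPM after kainic acid, against 136, 127 and 136 CPM after PBS. Both fractions had no overlap, with changes of 0.60 ± 0.11 (adjusted p = 0.00279) and 0.78 ± 0.12 (adjusted p = 8.74e-05) on the log2 scale. Zbtb16 in the PV input was at 250.2, 218, 262 and 204 CPM after kainic acid, against 163, 166, 162 and 137 CPM after PBS, a change of 0.54 ± 0.13 (adjusted p = 0.0182). That call was lost in a fit to all 4 PV groups (adjusted p = 0.0863) and without any 1 of kainic acid input replicates 1 and 3 and PBS input replicates 2 and 3 (adjusted p = 0.052 to 0.0737). Zbtb16 in the PV IP was at 143, 120.0, 130.4 and 83.9 CPM after kainic acid, against 115, 103, 108 and 73.9 CPM after PBS. The groups overlapped and the change of 0.23 ± 0.21 missed the threshold (adjusted p = 0.665). Zbtb16 was higher after kainic acid in 4 of 4 pairs of PV IP libraries with the same number, and with that number as a block the change of 0.22 missed the threshold too (adjusted p = 0.4658).

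Fkbp5 (gene ID 14229, chromosome 17, 28398753 to 28486149, minus strand, 11 exons), a widely used readout of glucocorticoid receptor activity, passed the test in 1 fraction. Fkbp5 in the CaMK2a input was at 68, 61.4 and 64.2 CPM after kainic acid, against 40.8, 41.6 and 54.7 CPM after PBS, a rise of 0.50 ± 0.13 (adjusted p = 0.00666). Without PBS input replicate 1 or replicate 2 the adjusted p was 0.0537 or 0.0552. In the CaMK2a IP the ranges were 54.2 to 58.6 CPM after kainic acid and 46.8 to 57.2 CPM after PBS, and in the PV IP 24.2 to 36.7 CPM after kainic acid and 21.6 to 40.7 CPM after PBS. Those ranges overlapped, as did 57.3 to 74.8 CPM after kainic acid and 46 to 61.3 CPM after PBS in the PV input. The 95% intervals of the log2 fold change were -0.14 to 0.35 in the CaMK2a IP, -0.40 to 0.81 in the PV IP and -0.09 to 0.57 in the PV input.

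Nr3c1 (gene ID 14815, chromosome 18, 39410545 to 39519416, minus strand, 16 exons) encodes the glucocorticoid receptor itself. Nr3c1 in the CaMK2a IP was at 105, 119 and 103 CPM after kainic acid, against 132, 138 and 117 CPM after PBS. In the CaMK2a input it was at 46.7, 67.6 and 44.1 CPM after kainic acid, against 64.1, 65.6 and 60.1 CPM after PBS. In the PV IP it was at 71.2, 81.5, 73.2 and 35.9 CPM after kainic acid, against 95.4, 77.6, 80.8 and 68.9 CPM after PBS. The groups overlapped in all 4 fractions, with the means after kainic acid below those after PBS. The log2 fold changes were -0.24 ± 0.10, -0.26 ± 0.14, -0.33 ± 0.24 and -0.35 ± 0.17 in the CaMK2a IP, CaMK2a input, PV IP and PV input, with adjusted p of 0.0949 to 0.558. Nr3c1 in the PV input was at 85.9, 80.5, 94 and 61.1 CPM after kainic acid, against 97.2, 105, 117 and 81.7 CPM after PBS. There it passed the test as a fall when the replicate number was a block (-0.36, adjusted p = 0.00833) and with PV replicates 1 to 3 only (-0.32, adjusted p = 0.0414). In the CaMK2a IP it passed as a fall with upper-quartile scaling (adjusted p = 0.0261) and without kainic acid IP replicate 2 (adjusted p = 0.0334). In the CaMK2a input it passed without kainic acid input replicate 2 (-0.46, adjusted p = 0.00562). The related gene Nr3c2, which encodes the mineralocorticoid receptor, fell by 0.70 ± 0.14 in the CaMK2a IP and by 0.77 ± 0.13 in the CaMK2a input on the log2 scale.

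Ddit4 (gene ID 74747, chromosome 10, 59949675 to 59951770, minus strand, 3 exons) encodes REDD1, an inhibitor of mTORC1. It had few reads, 47 to 286 per library. Ddit4 in the PV IP was at 6.44, 6.31, 4.71 and 16.5 CPM after kainic acid, against 14.8, 13.4, 12.1 and 17.6 CPM after PBS. Ddit4 in the CaMK2a input was at 19.6, 17.6 and 20.3 CPM after kainic acid, against 21.5, 23.5 and 25 CPM after PBS. In all 4 fractions the mean was lower after kainic acid, but the log2 fold changes of -0.79 ± 0.45 in the PV IP to -0.27 ± 0.23 in the CaMK2a IP missed the threshold (adjusted p of 0.166 to 0.426). Of 12 mTORC1 regulators and integrated stress response genes tested, Ddit4 counted, 5 rose and 1 fell in the CaMK2a IP. In the CaMK2a input 5 rose and 2 fell (1 fell without any 1 of 5 of its 6 libraries). In the PV IP 2 rose, and in the PV input 4 rose and 1 fell. Of all genes tested 19.8%, 19.3%, 4.05% and 8.21% rose and 15.3%, 15.7%, 0.801% and 3.36% fell, in the same order of fractions. Sesn1, a sestrin that restrains mTORC1, passed as a fall in the PV IP with the replicate block (-0.99, adjusted p = 0.0321), with upper-quartile factors, by DESeq2 and in a fit to all 4 PV groups. Rheb, the activator of mTORC1, rose by 1.80 ± 0.15, 1.71 ± 0.10, 1.37 ± 0.21 and 1.38 ± 0.13 in the CaMK2a IP and input and the PV IP and input. Atf4, the transcription factor of the integrated stress response, rose by 1.28 ± 0.11, 1.40 ± 0.10, 1.04 ± 0.18 and 1.38 ± 0.19 in the same order. Sesn2, another inhibitor of mTORC1, rose by 1.77 ± 0.18 in the CaMK2a IP, and Ddit4l, a paralog of Ddit4, rose by 1.42 ± 0.21 in the PV input.

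Of the other genes known to be induced by glucocorticoids, some rose in each fraction and none passed the test as a fall by edgeR with all libraries and no block. Of 22 listed, 8 of 17 tested rose in the CaMK2a IP, against 19.8% of all genes. Without kainic acid IP replicate 2, 13 rose. The filter on low counts was applied anew there, so the number tested can differ from 17 and the share of all genes from 19.8%. In the CaMK2a input 17 of 21 rose, against 19.3%. In the PV IP 6 of 21 rose, against 4.05%, and in the PV input 11 of 21, against 8.21%. The PV input count was 7 without PBS input replicate 1 or replicate 2 and 7 in a fit to all 4 PV groups. In the count of falls, 1 gene fell in the CaMK2a IP without kainic acid IP replicate 1, and 1 in the PV input with the block or with PV replicates 1 to 3 only. The list's median log2 fold change was 0.36, 1.32, 0.92 and 0.98 in the CaMK2a IP, CaMK2a input, PV IP and PV input. Errfi1, a feedback inhibitor of the EGF receptor, rose by 2.86 ± 0.28, 2.95 ± 0.15, 2.75 ± 0.22 and 2.86 ± 0.16 in that order. Nedd9, a scaffold protein of focal adhesions, rose by 2.75 ± 0.23 in the CaMK2a IP and by 2.54 ± 0.31 in the PV IP. Dusp1, a MAP kinase phosphatase and immediate early gene, rose by 1.80 ± 0.15 in the CaMK2a IP and by 2.60 ± 0.26 in the PV IP. Lcn2, which encodes the secreted lipocalin 2, rose by 4.77 ± 0.29 in the CaMK2a input and by 4.10 ± 0.64 in the PV input. Several of these genes are known to respond to neuronal activity or cytokines too.

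Among the receptors, chaperones and steroid enzymes, the members Nr3c1 and Fkbp5 counted, 5 of 13 rose and 4 fell in the CaMK2a IP. Of all genes there 19.8% rose and 15.3% fell. With the replicate number as a block 4 rose and 3 fell, against 17.3% and 12.7% of all genes. Of the calls without the block, 1 rise was lost in 8 of 13 alternatives and 1 fall in 5 of 13. In the CaMK2a input 6 rose, Fkbp5 among them, and 3 fell, against 19.3% and 15.7% of all genes. Among these, the call on Fkbp5 was lost in 2 of 13 alternatives and another call in 5 of 13. The Hsp70 family gene Hspa8 rose by 1.23 ± 0.14 and 0.98 ± 0.10 in the CaMK2a IP and input. Hsp90aa1, whose product holds the receptor ready to bind hormone, rose by 0.99 ± 0.11 and 0.63 ± 0.10. In the PV input Hspa8 rose by 0.55 ± 0.12, the 1 call of 13, which was lost in a fit to all 4 PV groups (adjusted p = 0.101). There 8.21% of all genes rose and 3.36% fell. With the replicate number as a block there were 3 rises and 5 falls in the PV input, Nr3c1 among the falls. Of all genes 16.5% rose and 14.3% fell with that block. The count in the PV IP was 0 by edgeR and by DESeq2, where 4.05% of all genes rose and 0.801% fell by edgeR. There was 1 rise at an unadjusted p under 0.05 and 1 in a fit to all 4 PV groups.

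Markers of other cells were set beside these results, and their counts are to be read against the shares of all genes given above. Of 8 astrocyte markers 1 rose in the CaMK2a IP and 2 in the CaMK2a input. The CaMK2a IP count was 5 without kainic acid IP replicate 2, 2 in a fit to all 4 CaMK2a groups and 0 with the replicate block, RLE or upper-quartile factors, no filter, or without kainic acid IP replicate 1 or 3 or PBS IP replicate 1 or 3. The CaMK2a input count was 4 without kainic acid input replicate 2, and 1 without PBS input replicate 2 or in a fit to all 4 CaMK2a groups. In the PV IP 0 of 8 passed by edgeR, by DESeq2 and at an unadjusted p under 0.05, and in the PV input 0 passed by edgeR, 1 by DESeq2 and 1 at an unadjusted p under 0.05. Their summed level in the CaMK2a IP was 1296 to 2512 CPM after kainic acid, against 1370 to 2049 CPM after PBS. In the PV IP it was 3634 to 6756 CPM after kainic acid, against 4713 to 6428 CPM after PBS. In the CaMK2a input it was 8832 to 9655 CPM after kainic acid, against 8180 to 8233 CPM after PBS. The 10 endothelial and mural markers summed to 139 to 149.7 CPM after kainic acid, against 96.2 to 102 CPM after PBS, in the CaMK2a input, where 5 of 10 rose and 1 fell (2 rose in a fit to all 4 CaMK2a groups). Of 7 pyramidal neuron markers 3 fell in the CaMK2a IP, 3 in the CaMK2a input and 2 in the PV input, where the mean of Nr3c1 was also below that after PBS. The count of falls in the PV IP was 1, and 0 without any 1 of its 8 libraries. Of 6 markers of other interneurons the neuropeptide genes Npy and Sst rose in all 4 fractions. The sum of these 6 in the CaMK2a IP was 487 to 1159 CPM after kainic acid, against 97.5 to 143 CPM after PBS. Their sum in the PV IP was 903 to 1186 CPM after kainic acid, against 290 to 379 CPM after PBS. Of 6 markers listed for PV interneurons 3 rose in the CaMK2a IP, namely Tac1 and the general GABAergic genes Gad1 and Gad2. In the CaMK2a input 4 rose, and in each PV fraction 1 (Tac1, a neuropeptide precursor gene). With the replicate block 2 rose in the PV IP and 3 in the PV input, where 1 also fell. The part of these cells in the results of the members was not tested.

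Whether kainic acid changed a member more in one fraction than in another was tested as a difference of effects. Between IP and input, 0 of 8 members passed in the CaMK2a line, where 0.103% of 11623 genes did, and 0 of 8 in the PV line, where 0.0253% of 11862 genes did. Between the CaMK2a and PV lines, 0 of 8 passed in the IP, where 0.0934% of 11781 genes did, and 0 of 8 in the input, where 0% of 11816 genes did. DESeq2 called 0 members in each of the 4, and at an unadjusted p under 0.05 there was 1, Fkbp5 in IP minus input of the CaMK2a line (-0.44 ± 0.18, adjusted p = 0.517). The difference of the log2 effects of Mt2, CaMK2a IP minus PV IP, was 0.37, with a 95% interval of -0.33 to 1.07. For Mt1 it was -0.37, with an interval of -0.94 to 0.20, for Sgk1 0.38, with an interval of -0.17 to 0.93, and for Zbtb16 0.37, with an interval of -0.19 to 0.93. For Cdkn1a the interval of -0.78 to 1.56 was the widest of the 4 genes that rose in all fractions. Differences of these sizes were not detectable with these libraries, and missing the threshold does not show equal responses.

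IP against input asks how much of each transcript was bound to ribosomes of the tagged cells relative to whole CA1. In the CaMK2a line Mt2, Mt1, Sgk1, Cdkn1a and Ddit4 were lower in IP than in input after either treatment, and Nr3c1 was higher. After kainic acid, 1 of 8 members was higher and 5 were lower, against 24.3% and 25.8% of 11076 genes. After PBS, 2 were higher and 5 were lower, against 32.6% and 31.6% of 11190 genes. Mt2 averaged 252 ± 73 CPM in kainic acid IP and 1524 ± 520.3 CPM in kainic acid input, and 54.8 ± 7.79 CPM in PBS IP and 364 ± 55.6 CPM in PBS input (SD, n = 3 each). The log2 fold changes of Mt2 were -2.61 ± 0.27 after kainic acid and -2.73 ± 0.11 after PBS. After kainic acid they were -2.05 ± 0.24 for Mt1, -1.16 ± 0.14 for Sgk1 and -1.09 ± 0.23 for Cdkn1a. After PBS they were -1.69 ± 0.10 for Mt1, -1.20 ± 0.11 for Sgk1 and -0.91 ± 0.14 for Cdkn1a. Nr3c1 was higher by 1.02 ± 0.17 after kainic acid and 1.04 ± 0.08 after PBS, and Zbtb16 by 0.39 ± 0.06 after PBS. Ddit4 was lower by 0.71 ± 0.22 on the log2 scale after kainic acid, a call lost without kainic acid input replicate 1 or 3 or kainic acid IP replicate 3 (adjusted p = 0.0522 to 0.0871). All 8 astrocyte markers were lower in the CaMK2a IP, with a median of -2.59 after kainic acid and -2.78 after PBS. After PBS so were all markers of microglia (median -3.31), the oligodendrocyte lineage (-3.03) and endothelial and mural cells (-2.97). The same held for markers listed for PV interneurons (-2.66) and other interneurons (-2.59), while 6 of 7 pyramidal neuron markers were higher. The part of any of these cells in the values of Mt1 and Mt2 was not tested.

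**Figure D4:**
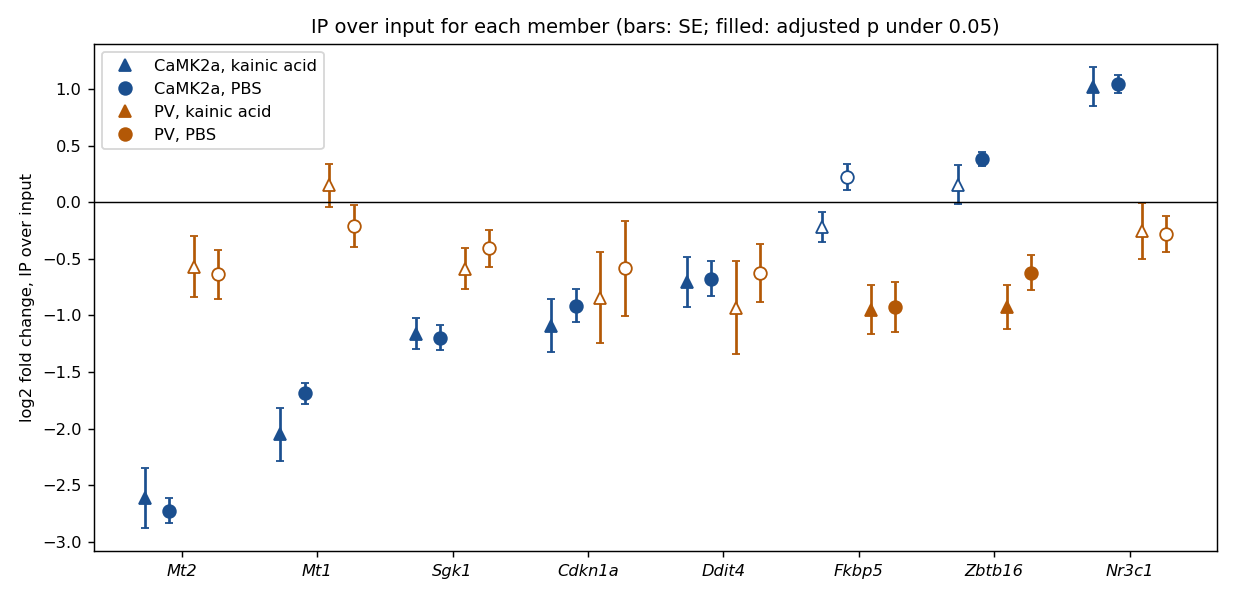
Log2 fold change of IP over input (y axis) for each member (x axis), in the CaMK2a line (blue) and the PV line (orange), after kainic acid (triangles) and PBS (circles), with the SE as bars and filled symbols where the adjusted p was under 0.05. Mt2 and Mt1 lie at -2.73 to -1.69 in the CaMK2a line and at -0.64 to 0.15 in the PV line. Nr3c1 lies above 0 in the CaMK2a line. The fits shown did not pair IP with input, and an open symbol does not show that IP and input were equal.

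In the PV line Fkbp5 and Zbtb16 were lower in IP than in input after either treatment, in fits that did not pair IP with input. After kainic acid, 0 of 8 members were higher and 2 lower, against 6.85% and 4.11% of 11205 genes (with upper-quartile scaling 50.9% of the genes called were higher, against 62.5%). After PBS, 0 were higher and 2 lower, against 10.6% and 7.98% of 11204 genes. No member was higher at an unadjusted p under 0.05 or by DESeq2. Fkbp5 averaged 32.9 ± 5.87 CPM in kainic acid IP and 65.7 ± 7.66 CPM in kainic acid input, and 28 ± 8.80 CPM in PBS IP and 54.3 ± 6.97 CPM in PBS input (SD, n = 4 each). Its log2 fold changes were -0.95 ± 0.21 after kainic acid and -0.92 ± 0.22 after PBS, and those of Zbtb16 were -0.92 ± 0.19 after kainic acid and -0.62 ± 0.16 after PBS. IP and input of a replicate number come from the same lysate, and with that pairing as a block 6 members were lower after kainic acid and 4 after PBS. The added falls were Mt2 and Sgk1 after both treatments, at -0.49 and -0.60 after kainic acid and -0.67 and -0.42 after PBS, and Cdkn1a (-0.77) and Ddit4 (-1.10) after kainic acid. Without the block Ddit4 passed when PV kainic acid IP replicate 4 was left out (-1.49, adjusted p = 0.0151), and Mt2 passed after PBS when PV PBS IP replicate 4 was left out (-0.90, adjusted p = 0.00205). Without PBS input replicate 2 Zbtb16 missed the threshold after PBS (adjusted p = 0.052), and without kainic acid input replicate 3 Fkbp5 missed it after kainic acid (adjusted p = 0.0519), each leaving 1 member called. Without PV IP replicate 3 of the treatment concerned, Sgk1 was also lower (adjusted p = 0.0371 after kainic acid and 0.0353 after PBS).

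The IP enrichment of 6 members after PBS differed between the lines. The difference of IP over input, PV minus CaMK2a, was positive for 3 of 8 members and negative for 3, against 13.3% and 14.3% of 11760 genes. It was 2.02 ± 0.29 for Mt2 (adjusted p = 5.95e-05), 1.42 ± 0.24 for Mt1 (adjusted p = 0.000342) and 0.73 ± 0.22 for Sgk1 (adjusted p = 0.0179). The call on Sgk1 was lost without CaMK2a PBS input replicate 3 or CaMK2a PBS IP replicate 1 (adjusted p = 0.068 and 0.0665). It was -1.38 ± 0.20 for Nr3c1, -1.19 ± 0.29 for Fkbp5 and -1.06 ± 0.19 for Zbtb16. For Cdkn1a and Ddit4 the values of 0.28 ± 0.50 and -0.01 ± 0.32 missed the threshold. In the same contrast all 8 astrocyte and all 8 oligodendrocyte lineage markers were positive, with medians of 1.80 and 2.12, and 6 of 7 pyramidal neuron markers were negative, with a median of -1.57. All 6 markers listed for PV interneurons were positive too (median 4.98), as were 5 of 6 of other interneurons (2.05) and 6 of 8 of microglia (1.98). Of 10 endothelial and mural markers 3 were positive, and of 4 choroid plexus markers 1 was negative. The part of any of these cells was not tested. The lines also differ in mice pooled and in the RNA that library preparation began from, which cannot be told apart from the Cre line.

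Across the 8 groups, the order of mean CPM put Mt1, Mt2, Sgk1 and Cdkn1a highest in the kainic acid CaMK2a input. Cdkn1a there averaged 417 ± 113 CPM and stood clear of the next group, the kainic acid CaMK2a IP at 198 ± 58 CPM. For Mt1, Mt2 and Sgk1 the second group overlapped the first in range. Nr3c1 was highest in the PBS CaMK2a IP at 129 ± 10.5 CPM and lowest in the kainic acid CaMK2a input at 52.8 ± 12.9 CPM, and neighbours in its order overlapped throughout. Zbtb16 was highest in the kainic acid CaMK2a IP at 258.5 ± 38.6 CPM, overlapping the kainic acid inputs of both lines, and Fkbp5 in the kainic acid PV input at 65.7 CPM, with both PV IP groups below all others. Ddit4 ran down to 8.48 CPM in the kainic acid PV IP, also with overlap between all neighbours.

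The ranking of similar patterns drew on 12194 genes, less those with placeholder symbols such as Gm numbers, Rik and LOC names. The genes with the most similar pattern over the 28 libraries were taken by Pearson correlation of log2 CPM, which shares library, depth and composition. For Mt1 they were Trp53inp2, Mt2 and Sat1 (r = 0.96, 0.96 and 0.95), and for Mt2 they were Mt1, Sox9 and Cd14 (0.96, 0.95 and 0.95). For Sgk1 they were Stat3, Itgav and Sox9 (0.97, 0.96 and 0.94), and for Cdkn1a they were Hspb1, Arc and Tet3 (0.98, 0.96 and 0.96). For Nr3c1 they were Slc39a10, Lrrc7 and Grin2a (0.94, 0.93 and 0.92), and for Zbtb16 they were Mapk1ip1l, Cbl and Rab3ip (0.91, 0.90 and 0.90). Fkbp5 had Tceal8, Wbscr17 and Ppp6c (0.90, 0.87 and 0.86), and Ddit4 had Hadha, Frzb and Cyb5a (0.847, 0.835 and 0.835). No member other than Mt1 and Mt2 was among the 3 nearest genes of another member.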

How the data were processed

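The members and gene lists were chosen with earlier results of these data known. Per the submitters' processing notes the authors used BWA, edgeR and the mouse builds mm10 and GRCm38; versions and the aligner's role are not given in the sources used here. The deposited counts are whole reads per coding gene and library and were the values analysed. The authors' RPKM columns, reads per kilobase of listed length and relative to library size, served to compare levels between genes. The deposited CPM column, the deposited fold ratio and the deposited p-value and FDR columns were read and not used. Tables of rises and falls were joined. IP against input after PBS was built from counts of 2 tables. None of 79845 CaMK2a and 109436 PV counts shared by tables differed.

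Tests were edgeR 4.0.16 quasi-likelihood tests in R 4.3.3 on TMM-scaled libraries after filterByExpr (minimum count 10). A call needed a p under 0.05 after Benjamini-Hochberg adjustment over all genes tested, without a replicate block, checked on simulated counts. Each SE was the absolute log2 fold change divided by the root of its F statistic, and 95% intervals use edgeR's degrees of freedom. CPM uses TMM over all 28 libraries. Alternatives were scaling by RLE or by the upper quartile, dropping or tightening the filter, DESeq2 1.42.0, the replicate block, 1 model for the 4 groups of a line, PV replicates 1 to 3 only and each library left out. Each replicate is a pool of mice. IP and input of a number share a lysate. Across treatments, same-numbered libraries deviated together in the CaMK2a input (r = 0.28 to 0.64), PV IP (0.19 to 0.70) and PV input (0.61 to 0.93), so there the numbers were taken to pair, and not in the CaMK2a IP (-0.36 to 0.54). In 5 of the 11 pairs so taken, the kainic acid library correlated more with a PBS library of another number. The text names all members, up to 4 other genes per list with the largest change past the threshold in a comparison, Mt3, and the 3 nearest genes of each member. Figures were drawn with matplotlib 3.10.9 in Python 3.11.15.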

Additional observations from a re-analysis of the deposited data

Results flagged for a closer look

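In 7 of 32 checks of a PV group of 4 libraries, 1 library lay far from the other 3. Replicate 4 was that library for Mt1 at 159 CPM, Mt2 at 289 CPM and Zbtb16 at 137 CPM in the PBS input, for Cdkn1a at 391 CPM in the kainic acid input and for Ddit4 at 16.5 CPM in the kainic acid IP. Replicate 3 was it for Fkbp5 at 24.2 CPM in the kainic acid IP, and replicate 2 for Cdkn1a at 8.64 CPM in the PBS input.

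Between the lines, the difference in IP enrichment after PBS (PV minus CaMK2a, log2) was past the threshold for Mt1 at 1.42, Mt2 at 2.02, Sgk1 at 0.73, Fkbp5 at -1.19, Nr3c1 at -1.38 and Zbtb16 at -1.06 by a test of the difference itself.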

How the results depend on the processing

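Of 220 alternative counts of members called over 13 comparisons, 215 stayed within 1.5 times the reported count. The 5 others were PV IP against input. After PBS the count of 2 became 4 with upper-quartile factors and 4 with the replicate block, and 1 to 3 with 1 library left out. After kainic acid the count of 2 became 6 with the replicate block and 1 to 3 with 1 library left out. The cause was not tested. Of 1760 alternative values of single members, 1719 kept direction and call, 14 fell short of the threshold, 27 newly passed it and 0 reversed a call. Beside the calls given above, Fkbp5 newly passed in the CaMK2a IP against input with upper-quartile factors after kainic acid (-0.34), and with 1 library left out after PBS (0.31 to 0.35). In the PV IP against input, Mt2 after PBS also passed with RLE or upper-quartile factors, DESeq2 or PV replicates 1 to 3, Sgk1 after PBS with upper-quartile factors, Sgk1 after kainic acid with upper-quartile factors, DESeq2 or a fit to all 4 PV groups, and Ddit4 after kainic acid with PV replicates 1 to 3. Apart from these and the PV and Nr3c1 values given above, the replicate block changed no call on a member. Upper-quartile factors moved the share of rises among genes called for kainic acid in the CaMK2a IP to 42.4%, against 56.4%, and in the CaMK2a input to 45.8%, against 55.2%, with the median of all genes at -0.09 and -0.08, and the rises of members held. Upper-quartile scaling moved that median by over 0.1 in the CaMK2a IP against input, to -0.15 after kainic acid and -0.13 after PBS. Over all genes, the 89 falls in the PV IP became 248 with the block, 209 by DESeq2, 285 in a fit to all PV groups, 178 with PV replicates 1 to 3 and 30 to 164 with 1 library left out, and the 450 rises 776 in a fit to all PV groups. The 374 falls in the PV input became 1590, 658, 214, 1150 and 196 to 616 in that order, and the 915 rises 1835 with the block, 603 in a fit to all PV groups and 1608 with PV replicates 1 to 3. The 1633 falls in the CaMK2a IP became 1013 or 979 without PBS IP replicate 1 or 3. In the PV IP against input, the 460 lower and 767 higher genes after kainic acid became 1082 and 1313 with the block, 719 lower by DESeq2 and as few as 234 and 486 with 1 library left out, and the 894 lower after PBS became 1599 with the block and 581 without PBS input replicate 2. Depth limits Ddit4 (47 to 286 reads), Cdkn1a in PBS IP (from 39 reads) and Mt3 (4 to 59 reads).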

Other observations

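TSC22 domain genes other than Tsc22d3 were measured. Tsc22d2 rose in all 4 fractions, by 1.69 ± 0.12 in the CaMK2a IP and in the CaMK2a input, 1.84 ± 0.17 in the PV IP and 1.99 ± 0.14 in the PV input on the log2 scale. Tsc22d4 rose by 1.07 ± 0.35 in the CaMK2a IP and by 0.60 ± 0.15 in the CaMK2a input. The 2 calls on TSC22 genes became 1 in the CaMK2a IP with upper-quartile factors or without kainic acid IP replicate 1 or 3 or any PBS IP library, and 1 in the CaMK2a input in a fit to all 4 CaMK2a groups. In the PV input Tsc22d4 also passed with the replicate block (0.54, adjusted p = 0.00656) and with PV replicates 1 to 3 only (0.52, adjusted p = 0.0356).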
